A study of Mus musculus with 7 samples.

Results

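Genes of the matrix metalloproteinases (MMPs), the ADAM proteases, the ADAMTS proteases and the TIMPs were examined in follicular dendritic cells (FDCs) of mouse lymph nodes. The members were all rows of the expression table whose gene symbol starts with Mmp, Adam or Adamts followed by a digit, plus Timp1 to Timp4. They were 56 of 21176 genes: 18 MMP, 18 ADAM, 16 ADAMTS and 4 TIMP genes. FDCs, the antigen-retaining stromal cells of B-cell follicles, had been sorted out of popliteal nodes; the mice were males, not immunized, 8 to 12 weeks old. One group was wild type (WT, n = 4) and the other lacked Ngfr, which encodes the neurotrophin receptor p75 (Ngfr KO, n = 3); the labels name no other treatment. Each sample pooled lymph nodes from several animals, so the error between samples is the spread between pools. The strain and the Ngfr allele are not given in the sources used here.

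MMPs, ADAMs and ADAMTS proteases are metalloproteinases with a zinc ion in the active site. MMPs cut collagens, other matrix proteins and signalling proteins outside the cell. ADAMs are anchored in the membrane and release the outer part of receptors, adhesion molecules and cytokines, and ADAMTS enzymes are secreted and act mostly on proteoglycans and procollagens. TIMPs bind the active site and block it. In lymph nodes these enzymes act on the conduit matrix and on cell surface proteins such as CD23, which FDCs carry.

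Sequencing depth was 17244925 to 18873542 reads per library in WT and 20741770 to 21538400 in Ngfr KO, so every Ngfr KO library was the deeper. Values are reads multiplied by 1 factor per sample, and a value of 1 stands for 230 to 295 reads. Ngfr itself had values of 0.377, 0.677, 1.3 and 1.14 in WT replicates 1 to 4 and 0.305, 0.353 and 0.184 in Ngfr KO replicates 1 to 3. The groups did not overlap, but reads were present in every Ngfr KO library (edgeR log2 change -1.55, SE 0.49, adjusted p = 0.0574). DESeq2 called Ngfr lower (log2 change -1.57, adjusted p = 0.0135), as did edgeR without WT replicate 1 (adjusted p = 0.0300).

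The labelled cell type was checked against fixed marker lists. The sum over 14 FDC markers was 1812 to 5091 in WT against 7858 to 10379 in Ngfr KO; 13 of the 14 were called higher. The sum over markers of blood vessel endothelium was 226 to 339 in WT against 40.1 to 81.8 in Ngfr KO; all 13 that could be tested, of 14 listed, were called lower. Of 5 lymphatic endothelium markers 4 were called lower, with sums of 73.7 to 129 and 21.7 to 55.4. The sum for reticular stroma was 75.6 to 152 in WT against 237 to 341 in Ngfr KO, with 3 of 7 tested genes called higher. Dcn alone gave 37.5 to 69.3 of that sum in WT and 151 to 248 in Ngfr KO. Of 5 tested markers of pericytes and smooth muscle 3 were called higher, with overlapping sums of 21.4 to 56.9 and 44.9 to 74.9. Of 5 tested B cell markers 1 was called higher, of 3 tested plasma cell markers 1, and of 5 tested T cell markers none. Of 3 tested macrophage and dendritic cell markers 1 was called higher and 1 lower. Over all genes tested, 18.3% were called higher and 15.8% lower (limma adjusted p under 0.05). None of these lists was at 0 in any group. In bulk samples, fewer cells of a type and less RNA per cell cannot be told apart, and this holds for every difference given here.

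The active site of these enzymes can be read from the coding sequence. A zinc-binding motif, His-Glu, 2 further residues, His, 5 further residues and His, was searched in the longest coding sequence of each member (GENCODE M21). It was found in all 18 MMPs, all 16 ADAMTS genes and 11 of 18 ADAMs, and in none of the 4 TIMPs. The ADAMs without it were Adam2, Adam4, Adam5, Adam11, Adam22, Adam23 and Adam32. The motif is shown for the proteases that were called between the groups and hold it, with the His and Glu codons in capitals (GRCm38, 5′ to 3′ on the coding strand):
Mmp3: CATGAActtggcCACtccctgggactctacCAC
Mmp23: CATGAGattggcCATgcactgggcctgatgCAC
Adam9: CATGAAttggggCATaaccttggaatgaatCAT
Adam15: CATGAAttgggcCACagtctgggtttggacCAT
Adam33: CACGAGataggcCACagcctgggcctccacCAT
Adamts1: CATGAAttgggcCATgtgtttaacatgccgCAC
Adamts10: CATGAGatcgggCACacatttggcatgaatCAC
They lie in exon 5 of Mmp3 (chr9:7449775-7449807, plus strand), exon 5 of Mmp23 (chr4:155651528-155651560, minus strand), exon 11 of Adam9 (chr8:24990326-24990358, minus strand), exon 11 of Adam15 (chr3:89344780-89344812, minus strand) and exon 11 of Adam33 (chr2:131055130-131055162, minus strand). In Adamts1 (chr16:85799191-85799545, minus strand) and Adamts10 (chr17:33538157-33538279, plus strand) an intron splits the motif, so the coordinates span that intron. After the second His and 2 further residues, a glycine codon was present in all of those shown except Adamts1.

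The comparison asked which of these genes differed in FDCs when Ngfr was lost. On log2(value + 1), 18 members reached 1 in no fewer than 3 samples and were tested with limma over 8326 genes. With limma adjusted p under 0.05, 6 members were higher in Ngfr KO (Timp1, Mmp3, Mmp23, Adam5, Adam9 and Adam15) and 5 were lower (Timp2, Timp3, Adam33, Adamts1 and Adamts10). Of all genes tested, 34.2% were called, 18.3% higher and 15.8% lower. The median log2 change was -0.03 over the 18 members and 0.02 over all genes tested. Mmp3 and Adam5 reached the minimum value through Ngfr KO samples alone and Adamts10 through WT samples alone, so that these 3 entered the test through the group in which they were higher. Of the 15 members that passed through both groups, 8 were called. Of the 18 tested members, 11 had groups that did not overlap, and these were the 11 that were called. Of all genes tested, 40.9% had groups that did not overlap (22.6% higher and 18.3% lower). edgeR on the reads tested 50 members and called 9 of them, 5 higher and 4 lower, against a background of 15.2% (8.67% higher and 6.55% lower); all 9 were also called by limma with the same sign. Without Ngfr KO replicate 2, edgeR called 3 members, all higher.

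**Figure D1:**
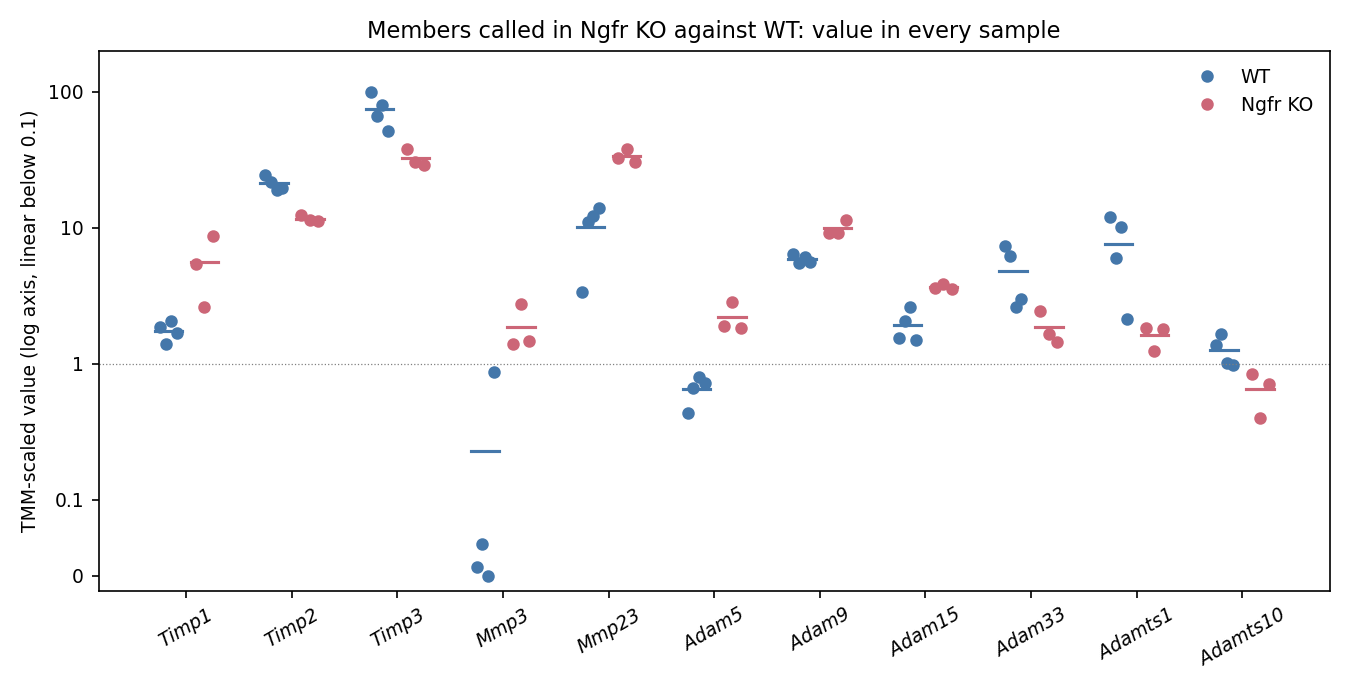
TMM-scaled value in each sample (log axis, linear below 0.1) of the 11 members called between Ngfr KO (red, n = 3) and WT (blue, n = 4); points are samples, short lines are group means and the dotted line marks a value of 1. No called member has overlapping groups, and Mmp3 has 3 WT samples at or near 0 with WT replicate 4 at 0.866.

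**Figure D2:**
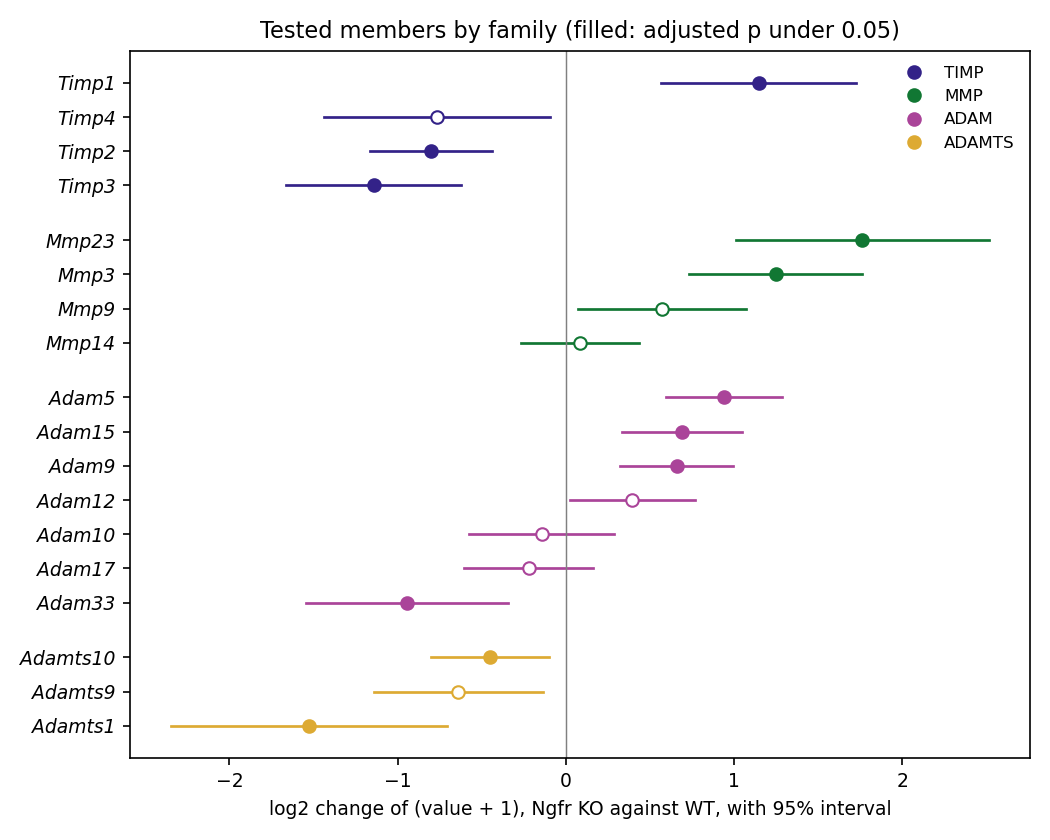
Log2 change of (value + 1), Ngfr KO against WT, of the 18 tested members by family, with limma's 95% interval as the line; filled points have an adjusted p under 0.05. Timp1 lies above 0 and the other TIMPs below, both called MMPs lie above 0 and all 3 tested ADAMTS genes below.

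The inhibitors did not move together. Timp1 rose, Timp2 and Timp3 fell, and Timp4 was not called. Timp3 (ENSMUSG00000020044, chromosome 10, 86300372 to 86349506, plus strand, GRCm38), the TIMP that stays bound to the matrix, had values of 99, 66.2, 79.9 and 51.1 in WT and 37.7, 30.5 and 28.8 in Ngfr KO. The lowest WT sample, replicate 4, lay above the highest Ngfr KO sample. Its mean was 74.1 ± 20.4 (SD, n = 4) in WT and 32.3 ± 4.7 (SD, n = 3) in Ngfr KO; limma gave a log2 change of -1.14 (SE 0.24, adjusted p = 0.00436). Timp3 lies inside the gene Syn3 on the opposite strand and shares 1733 exon bases with it, 21.3% of its merged exons. Whether the authors' counting used strand is not given in the sources used here, and Syn3 had a mean value of 6.12 over the 7 samples.

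Timp2 (ENSMUSG00000017466, chromosome 11, 118301069 to 118355740, minus strand), which also takes part in the activation of Mmp2 by Mmp14, had 24.4, 21.8, 18.9 and 19.8 in WT and 12.4, 11.4 and 11.2 in Ngfr KO. The samples of each group lay close together, and limma gave a log2 change of -0.80 (SE 0.17, adjusted p = 0.00408). Timp2 and Timp3 were called in every alternative in which they were tested. Timp4 (chromosome 6, 115241892 to 115252205, minus strand, inside Syn2) had 11.8, 8.28, 19.8 and 9.46 in WT and 9.62, 7.49 and 3.60 in Ngfr KO. Its groups overlapped through Ngfr KO replicate 1 (log2 change -0.77, 95% interval -1.44 to -0.09, limma adjusted p = 0.0724). With quantile normalization the adjusted p was 0.0396, and without Ngfr KO replicate 1 it was 0.0422 at a log2 change of -1.02. Without Ngfr KO replicate 3 the log2 change was -0.42.

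Timp1 (ENSMUSG00000001131, chromosome X, 20870166 to 20874735, plus strand), a soluble inhibitor whose gene lies inside Syn1, had 1.87, 1.40, 2.06 and 1.70 in WT and 5.40, 2.60 and 8.75 in Ngfr KO. Every Ngfr KO sample was above every WT sample, and the Ngfr KO samples were widely spread. The mean rose from 1.76 ± 0.28 (SD, n = 4) to 5.58 ± 3.08 (SD, n = 3); limma gave a log2 change of 1.15 (SE 0.27, adjusted p = 0.00719). On the reads the log2 change was 1.71 (edgeR adjusted p = 0.00962). Without the filter on low values the limma adjusted p was 0.0524.

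Levels of different genes can be compared only per length. Divided by the merged exon length (888 bases for Timp1, 3896 for Timp2, 8144 for Timp3 and 5894 for Timp4), Timp3 led in WT with 9.09 ± 2.50 per kb (SD, n = 4). It was followed by Timp2 with 5.44 ± 0.63, Timp4 with 2.09 ± 0.88 and Timp1 with 1.98 ± 0.32. In WT, Timp3 and Timp2 differed by more than the SD of either, as did Timp2 and Timp4, while Timp4 and Timp1 did not differ beyond their spread. In Ngfr KO, Timp1 had 6.29 ± 3.47 per kb (SD, n = 3), Timp3 3.97 ± 0.58, Timp2 3.00 ± 0.17 and Timp4 1.17 ± 0.52. The lead of Timp1 lay within its spread: Ngfr KO replicate 2 had 2.93 per kb. As a share of the 4 TIMPs per length, Timp1 made up 9.34% to 12.9% in WT against 26.9% to 58.4% in Ngfr KO, and Timp3 42.2% to 54.0% in WT against 20.9% to 34.4% in Ngfr KO. Merged exons count every annotated transcript, so these levels are too low for a gene whose longest transcripts were not used.

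**Figure D3:**
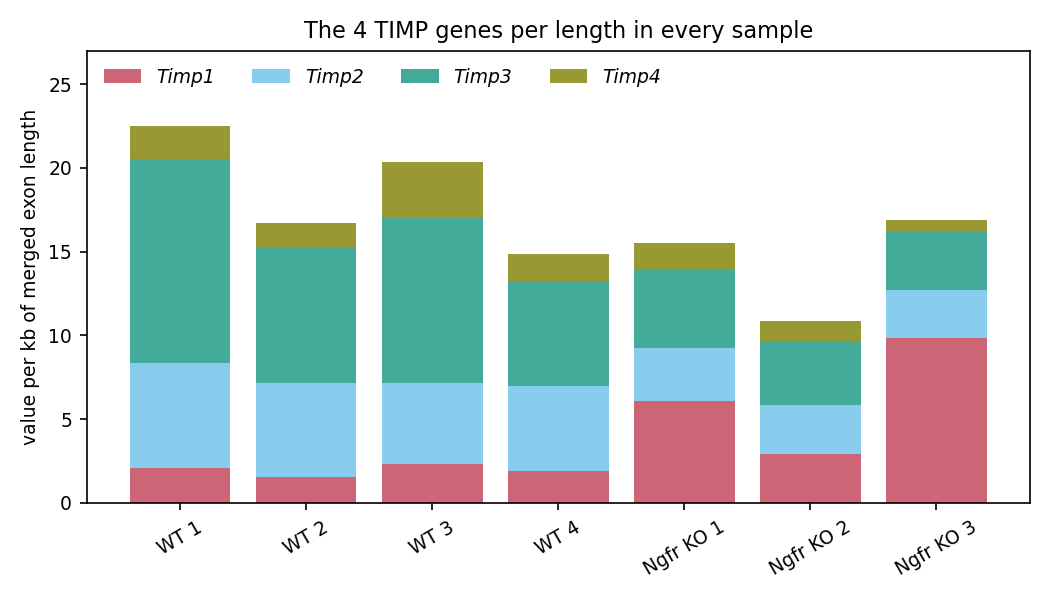
Stacked bars of the value per kb of merged exon length of Timp1, Timp2, Timp3 and Timp4 in each of the 4 WT and 3 Ngfr KO samples. Timp3 is the largest part in every WT bar, and Timp1 takes 26.9% to 58.4% of the Ngfr KO bars.

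Among the MMPs, Mmp23 rose in all 18 alternatives, Mmp3 was called higher by limma but by neither edgeR nor DESeq2, and Mmp9 and Mmp14 were not called. Mmp23 (ENSMUSG00000029061, chromosome 4, 155650655 to 155653384, minus strand) encodes an MMP that is held in the membrane by its amino-terminal part and released by cleavage. Its values were 3.39, 11.1, 12.2 and 14.0 in WT and 32.4, 37.8 and 30.2 in Ngfr KO. WT replicate 1 was low among the WT samples, and all Ngfr KO samples lay above the highest WT sample. The mean was 10.1 ± 4.7 (SD, n = 4) and 33.5 ± 3.9 (SD, n = 3); limma gave a log2 change of 1.76 (SE 0.35, adjusted p = 0.00310; edgeR 1.79, adjusted p = 0.0146). Mmp23 was called in all 18 alternatives. Per length it was the most abundant member in Ngfr KO, at 14.3 ± 1.7 per kb (SD, n = 3), and at 4.34 ± 1.99 per kb (SD, n = 4) in WT it did not differ beyond its spread from Timp2 at 5.44 or Adam10 at 2.75. In WT replicate 1 the sum of the FDC markers was also the lowest of all samples, 1812; its part in the Mmp23 difference was not tested.

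Mmp3 (ENSMUSG00000043613, chromosome 9, 7445822 to 7455975, plus strand), stromelysin 1, cuts proteoglycans, laminin and fibronectin and activates other MMPs. Its reads numbered 3, 11, 0 and 227 in WT and 386, 813 and 367 in Ngfr KO. WT replicate 4 stood apart from the other WT samples and came near the Ngfr KO range without reaching it. The values were 0.0117, 0.0412, 0 and 0.866 in WT and 1.40, 2.76 and 1.47 in Ngfr KO; limma gave a log2 change of 1.25 (SE 0.24, adjusted p = 0.00258). Mmp3 passed the filter through Ngfr KO samples alone, and on the reads its log2 change was 3.10 and not called (edgeR adjusted p = 0.119, DESeq2 adjusted p = 0.242).

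Mmp9 (ENSMUSG00000017737, chromosome 2, 164940780 to 164955850, plus strand), gelatinase B, had 4.54, 2.30, 3.73 and 4.79 in WT and 6.35, 4.28 and 7.94 in Ngfr KO. The groups overlapped through Ngfr KO replicate 2 (log2 change 0.57, 95% interval 0.07 to 1.07, limma adjusted p = 0.0700), and without that sample the adjusted p was 0.0400 at a log2 change of 0.78. Without Ngfr KO replicate 3 or WT replicate 2 the log2 change was 0.40 in each (limma adjusted p = 0.226 and 0.189). Mmp14 (ENSMUSG00000000957, chromosome 14, 54431612 to 54445364, plus strand), the membrane-type collagenase that activates Mmp2, had 6.79 to 9.0 in WT against 7.35 to 9.04 in Ngfr KO. Its difference had a 95% interval of -0.27 to 0.43 on the log2 scale around 0.08 (limma adjusted p = 0.707), and its sign turned with quantile normalization. Mmp2 itself, gelatinase A, stayed at or below 0.206 in every sample.

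Mmp3 belongs to a cluster of MMP genes on chromosome 9, of which Mmp13, Mmp12, Mmp3, Mmp8, Mmp27 and Mmp7 had rows, in that order from 7272514 to 7699585. They did not share a pattern across samples. Mmp12, macrophage elastase, had 658 reads in Ngfr KO replicate 1 and 15 to 40 in the other 6 samples. Mmp8, the neutrophil collagenase, had 476 reads in WT replicate 4 and 1 to 69 in the others. Mmp7, matrilysin, had no read in any WT library and 3, 16 and 47 reads in Ngfr KO replicates 1 to 3; a count of 0 allows up to 3 reads, values of 0.0112 to 0.0130 in the WT libraries. Mmp13, collagenase 3, had 56 and 24 reads in WT replicates 1 and 2, 6 in Ngfr KO replicate 1 and none in the other samples, and Mmp27 had at most 66 reads.

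Markers of the cells known for Mmp8 and Mmp12 were read beside them. Of 8 neutrophil markers only S100a8, S100a9 and Csf3r had rows in the table, and their sum was 78.4 in WT replicate 4, 29.6 in WT replicate 1 and at most 0.820 in the other samples. WT replicate 1 had 9 reads of Mmp8. The 9 measured macrophage and dendritic cell markers of 11 summed to 35.2 in Ngfr KO replicate 1, within the 26.6 to 95.5 of WT and the 32.2 to 55.9 of Ngfr KO. Marco made up 23.1 of the 35.2 in that sample. Lyz2 was at 9.19 there, above its WT maximum of 5.96, and Cd68 at 0.316, above its WT maximum of 0.265. Csf1r at 0.243 and Siglec1 at 0.152 were the lowest of all samples there, and Adgre1 and Itgax were at 0, as in WT replicates 3 and 4. Lyz2 and Cd68 were higher still in Ngfr KO replicate 3, at 28.1 and 1.23, where Mmp12 had 21 reads. The part of such cells in Mmp8 and Mmp12 was not tested.

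**Figure D4:**
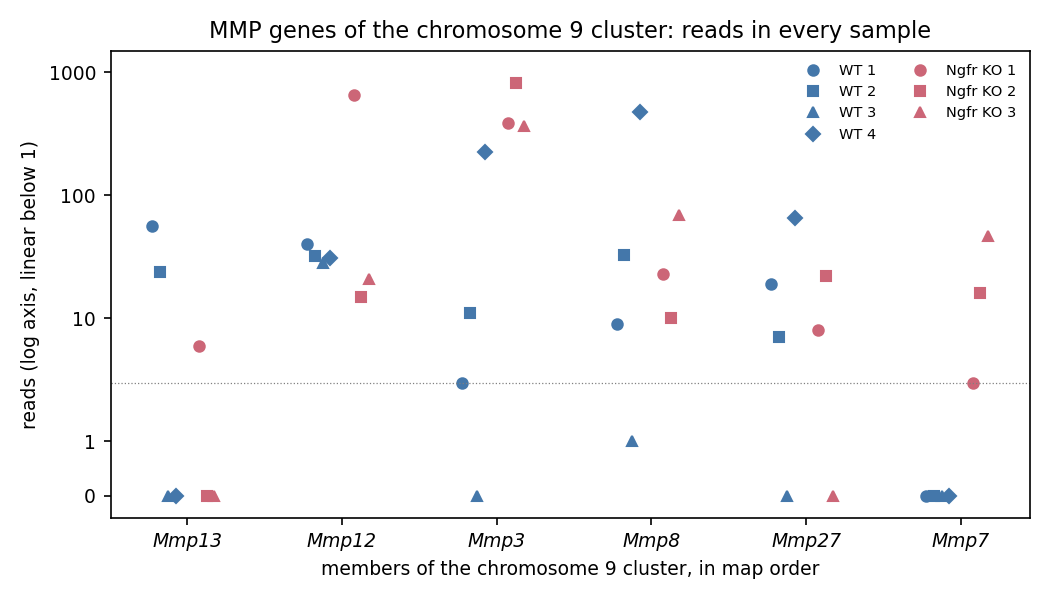
Reads in each sample (log axis, linear below 1) of the 6 MMP genes of the chromosome 9 cluster in map order, with WT in blue, Ngfr KO in red, a symbol for each replicate and a dotted line at 3 reads. Mmp3 is highest in the 3 Ngfr KO samples, while Mmp12 and Mmp8 are each high in 1 sample, and Mmp7 has no WT reads.

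The bases before the transcription start were compared in this cluster because AP-1 sites and TATA boxes are known from promoters of inducible MMPs. RefSeq windows (GRCm38.p6) matched 36 of the 56 members by symbol. In the 250 bases before the most upstream start, the AP-1 motif TGANTCA (on either strand) was in 3 of the 36, or 8.33%, and in 6.85% of 27025 windows of all genes. TATAAA, also on either strand, was in 4 of the 36 (11.1%) and in 13.0% of all windows. Mmp3, Mmp7 and Mmp13 were the members with the AP-1 motif, and each also held TATAAA. The 70 bases before the start are shown for them, all on the plus strand, with the AP-1 match in capitals:
Mmp3: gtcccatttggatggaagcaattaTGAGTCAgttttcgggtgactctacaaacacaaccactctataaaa
Mmp7: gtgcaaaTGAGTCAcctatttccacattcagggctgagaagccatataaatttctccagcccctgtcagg
Mmp13: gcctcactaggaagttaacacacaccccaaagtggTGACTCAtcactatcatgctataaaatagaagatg
These are chr9:7445752-7445821 (Mmp3), chr9:7692020-7692089 (Mmp7) and chr9:7272444-7272513 (Mmp13), and the matches begin 46, 63 and 35 bases before the start. The reads of Mmp3 were higher in every Ngfr KO sample than in every WT sample, and those of Mmp13 were not. Mmp7 had reads in the Ngfr KO samples alone, but the 3 reads of Ngfr KO replicate 1 are within what a WT count of 0 allows. The part of the motif in these differences was not tested. The windows of Mmp12, Mmp8 and Mmp27 held no such match.

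Among the ADAMs, 3 rose, 1 fell and 3 of the 7 tested were not called. Adam9 (ENSMUSG00000031555, chromosome 8, 24949611 to 25016927, minus strand), a widely expressed sheddase, had 6.39, 5.47, 6.06 and 5.63 in WT and 9.22, 9.09 and 11.4 in Ngfr KO. The WT samples lay within a narrow range and all Ngfr KO samples above it, and limma gave a log2 change of 0.66 (SE 0.16, adjusted p = 0.00777; edgeR 0.82, adjusted p = 0.0115). Adam15 (ENSMUSG00000028041, chromosome 3, 89338542 to 89349996, minus strand), which carries an integrin-binding sequence, had 1.56, 2.07, 2.62 and 1.51 in WT and 3.63, 3.85 and 3.58 in Ngfr KO. Here the Ngfr KO samples were the tighter group, and limma gave a log2 change of 0.69 (SE 0.16, adjusted p = 0.00807; edgeR 1.00, adjusted p = 0.0191). Adam9 and Adam15 were called in all 17 alternatives in which each was tested. Adam15 shares 1263 exon bases, 20.6% of its merged exons, with an annotated antisense gene.

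Adam5 (ENSMUSG00000031554, chromosome 8, 24727093 to 24824369, minus strand), a gene known from the male reproductive tract, is the called ADAM whose coding sequence lacked the zinc-binding motif. It had 0.432, 0.666, 0.804 and 0.728 in WT and 1.90, 2.86 and 1.84 in Ngfr KO. The groups were well apart, with means of 0.658 ± 0.161 (SD, n = 4) and 2.2 ± 0.57 (SD, n = 3). Limma gave a log2 change of 0.94 (SE 0.16, adjusted p = 0.00151), and 1.82 on the reads (edgeR adjusted p = 0.00618). Adam5, Adam32 and Adam9 are neighbours on the minus strand of chromosome 8, with Adam32 in the middle, 11770 bases from Adam5 and 806 bases from Adam9. Adam32 had values of 0 to 0.0861 in all 7 samples, far below both neighbours.

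Adam33 (ENSMUSG00000027318, chromosome 2, 131050591 to 131063814, minus strand), an ADAM of mesenchymal cells such as smooth muscle and fibroblasts, had 7.36, 6.20, 2.60 and 3.01 in WT and 2.44, 1.67 and 1.46 in Ngfr KO. The WT samples formed a high and a low pair, and the lower WT samples were near the highest Ngfr KO sample. Limma gave a log2 change of -0.94 (SE 0.28, adjusted p = 0.0219; edgeR -1.29, adjusted p = 0.0450). It was lost without the filter (adjusted p = 0.0998) and without Ngfr KO replicate 2 or 3 (adjusted p = 0.0726 in each) or WT replicate 1 or 2 (adjusted p = 0.0531 and 0.0590).

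The best known sheddases were not called. Adam10 (ENSMUSG00000054693, chromosome 9, 70678997 to 70780229, plus strand), which cleaves Notch receptors and CD23, ranked first among the ADAMs per length in both groups, in Ngfr KO at 2.46 ± 0.39 per kb (SD, n = 3) and thus not apart from Adam9 at 2.41. It had 9.94 to 17.0 in WT against 9.87 to 13.2 in Ngfr KO (log2 change -0.14, 95% interval -0.57 to 0.29, limma adjusted p = 0.594). Adam17 (ENSMUSG00000052593, chromosome 12, 21323509 to 21373632, minus strand), the TNF-converting enzyme, which also cleaves p75, had 3.01 to 5.39 in WT against 3.07 to 3.70 in Ngfr KO (log2 change -0.22, 95% interval -0.60 to 0.16, limma adjusted p = 0.345). Adam12 had 1.65 to 2.94 in WT against 2.87 to 3.65 in Ngfr KO. Its groups overlapped slightly (log2 change 0.40, 95% interval 0.02 to 0.77, limma adjusted p = 0.0886), and it was called without WT replicate 3 (adjusted p = 0.0384).

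Of 16 ADAMTS genes, 3 passed limma's filter; these were lower in mean and 2 were called, Adamts10 after passing through WT samples alone. edgeR tested 15 of the 16 and called Adamts1, lower; among those not called, its log2 changes ran in both directions, from -2.33 in Adamts6 to 1.69 in Adamts3. Adamts1 (ENSMUSG00000022893, chromosome 16, 85793827 to 85803113, minus strand), which cuts versican and aggrecan, had 12.1, 5.97, 10.1 and 2.15 in WT and 1.83, 1.24 and 1.81 in Ngfr KO. WT replicate 4 was close to the Ngfr KO samples and the other WT samples were well above them. Limma gave a log2 change of -1.53 (SE 0.38, adjusted p = 0.00982; edgeR -2.15, adjusted p = 0.0170), and without the filter the adjusted p was 0.0712. Adamts10 (ENSMUSG00000024299, chromosome 17, 33524204 to 33553782, plus strand), which binds fibrillin microfibrils, had 1.37, 1.67, 1.02 and 0.988 in WT and 0.845, 0.397 and 0.713 in Ngfr KO. Its log2 change of -0.45 (SE 0.16) was at the threshold (limma adjusted p = 0.0482). It was not called by edgeR (log2 change -0.89, adjusted p = 0.0975) and not without any 1 of the Ngfr KO replicates (adjusted p = 0.0644 to 0.199).

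Adamts9 (ENSMUSG00000030022, chromosome 6, 92772699 to 92943492, minus strand), a versican-cleaving enzyme, had 4.26, 2.39, 2.08 and 1.99 in WT and 1.37, 0.706 and 2.01 in Ngfr KO. Only Ngfr KO replicate 3 overlapped the WT range, and it did so at its lower end (log2 change -0.64, 95% interval -1.14 to -0.13, limma adjusted p = 0.0503). Without that sample the log2 change was -0.83 (adjusted p = 0.0292), and with median ratio scaling the adjusted p was 0.0449. Adamts9 was also called without WT replicate 4 (adjusted p = 0.0469), and without Ngfr KO replicate 2 its log2 change was -0.42. Adamts5, the main aggrecanase and the neighbour of Adamts1 on chromosome 16 at a distance of 53059 bases, had 0.641 to 1.54 in WT against 0.240 to 0.736 in Ngfr KO (edgeR log2 change -1.0, adjusted p = 0.15), and without Ngfr KO replicate 3 the log2 change was -0.65. Adamts4, another aggrecanase, had 0.554 to 0.743 in 3 WT samples and 1.73 in WT replicate 3, against 0.203 to 0.809 in Ngfr KO (edgeR log2 change -1.11, adjusted p = 0.229). Its log2 change was -0.58 without WT replicate 3 and -2.05 without Ngfr KO replicate 3.

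Endothelial transcripts moved in the same direction as Timp3, Timp2, Adam33, Adamts1 and Adamts10: all 13 tested markers of 14 were called lower, as given above. FDC markers moved in the direction of Timp1, Mmp23, Mmp3, Adam5, Adam9 and Adam15, with 13 of 14 called higher. So did 3 of 7 tested reticular stroma markers and 3 of 5 tested markers of pericytes and smooth muscle, whereas Adam33 fell. Over all genes tested, limma called 18.3% higher and 15.8% lower. The members are sorted here by the sign of their call, so any list that moved goes with some of them. Mmp3, Adam5 and Adamts10 also entered the test through the group in which they were higher. The part of these cell types in the members' differences was not tested.

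Of the 38 members that did not pass the filter, 31 stayed under a value of 0.5 in every sample. edgeR tested 32 of the 38 and called none, and 5 had an unadjusted edgeR p under 0.05. Over all members DESeq2 called 12 of the 51 it tested (23.5%), near its 21.9% of all genes (11.5% higher and 10.5% lower). Among the 38 it called 3, and its share over all genes below the filter was not taken. These were Mmp7 (described above), Mmp17 and Adamts6, named after their values were seen. Mmp17, a membrane-anchored MMP, had 62, 35, 113 and 67 reads in WT and 17, 21 and 15 in Ngfr KO (edgeR log2 change -2.04, adjusted p = 0.0693; DESeq2 adjusted p = 0.00977). Adamts6 had 106, 77, 53 and 25 reads in WT and 21, 4 and 14 in Ngfr KO (edgeR log2 change -2.33, adjusted p = 0.0843; DESeq2 adjusted p = 0.0151). In both the groups did not overlap. This held for 4 of the 38 members below the filter and for 15.7% of all genes below it. Adamts13, which cuts von Willebrand factor, had 17 to 79 reads in WT and 109 to 134 in Ngfr KO (edgeR log2 change 1.24, adjusted p = 0.156), also without overlap. Mmp15, a membrane-type MMP, had 0.584 to 0.892 in WT against 0.210 to 1.27 in Ngfr KO (edgeR adjusted p = 0.872), and Adamts20 had 0.235 to 0.412 in WT against 0.145 to 0.611 in Ngfr KO (edgeR adjusted p = 0.633). Mmp8 and Mmp12, each carried by 1 sample, had edgeR adjusted p-values of 0.423 and 0.103.

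Genes that control these enzymes were taken from a list of 28 regulators and partners, of which 26 had rows and 11 were tested. In limma, 4 were called higher and 3 lower, against 34.2% of all genes tested; edgeR tested 26 and called 1 higher and 2 lower, where it called 15.2% of all genes. Serpine2, a secreted inhibitor of thrombin and other serine proteases, passed the filter through WT samples alone, the group in which it was higher. It fell from a WT mean of 2.49 ± 1.05 (SD, n = 4) to an Ngfr KO mean of 0.594 ± 0.147 (SD, n = 3), a log2 change of -1.08 (limma adjusted p = 0.00320). Without the filter its limma adjusted p was 0.0310. Reck, a membrane-anchored MMP inhibitor, fell from 2.50 ± 0.58 to 1.18 ± 0.47 (log2 change -0.69, limma adjusted p = 0.0149). For Reck, edgeR gave an adjusted p of 0.0533 and DESeq2 0.0169, and limma gave 0.0599 and 0.0572 without Ngfr KO replicate 2 or 3. Of the tetraspanins that carry Adam10 to the cell surface, Tspan5 likewise passed the filter through WT samples alone. It fell from 1.35 ± 0.78 to 0.351 ± 0.071 (log2 change -0.74, limma adjusted p = 0.0214). That call was lost without the filter (limma adjusted p = 0.0965) and without Ngfr KO replicate 1 or 2 (adjusted p = 0.0654 and 0.0633). Tspan15 rose from 6.74 ± 0.57 to 9.96 ± 2.19 (log2 change 0.49, limma adjusted p = 0.0462) and Bsg, the MMP inducer basigin, from 19.6 ± 2.7 to 28.9 ± 4.6 (log2 change 0.53, limma adjusted p = 0.0454). Both calls were at the threshold. They were lost in edgeR (adjusted p = 0.0588 and 0.0531) and kept in DESeq2 (adjusted p = 0.0263 and 0.0175). Leaving out Ngfr KO replicate 1 or 2 or WT replicate 1, 2 or 4 also ended both, and for Bsg so did leaving out Ngfr KO replicate 3.

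Substrates were described from 2 further lists. Of 17 matrix substrates 10 were tested, and limma called 2 higher and 2 lower, a share near the 34.2% of all genes. edgeR tested 13 and called 1 higher and 2 lower, where it called 15.2% of all genes. Dcn, the proteoglycan decorin, rose from 48.0 ± 14.5 (SD, n = 4) to 198 ± 49 (SD, n = 3), a log2 change of 2.03 (limma adjusted p = 4.37e-04). Dcn is also among the reticular stroma markers. Fn1, fibronectin, had overlapping groups (log2 change 0.91, limma adjusted p = 0.0433) and was lost in 11 of 18 alternatives, 5 of them with 1 sample left out (Ngfr KO replicate 1 or 3, or WT replicate 1, 2 or 3; adjusted p = 0.0640 to 0.154). Eln, elastin, fell from 14.4 ± 2.0 to 6.44 ± 2.26 (log2 change -1.08, limma adjusted p = 0.00279). Nid1, a basement membrane protein, fell from 13.1 ± 4.0 to 6.47 ± 2.53 (log2 change -0.93, limma adjusted p = 0.0160). The call was lost without Ngfr KO replicate 2 (limma adjusted p = 0.0806) and in edgeR (adjusted p = 0.0570), and kept in DESeq2 (adjusted p = 0.0147).

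Of 32 membrane proteins known to be shed by ADAMs, 20 were tested, and limma called 7 higher and 7 lower. Of all genes tested, limma called 34.2%, 18.3% higher and 15.8% lower. edgeR tested 28 of the list and called 7 higher and 6 lower, where it called 15.2% of all genes. The largest rises were in Fcer2a (CD23), Prnp and Vcam1, with log2 changes of 3.13, 2.17 and 1.38 (limma adjusted p = 3.57e-04, 0.00151 and 0.00324); Fcer2a and Vcam1 are also among the FDC markers. The largest falls were in Alcam, Cdh5 and Tgfa, with log2 changes of -1.67, -1.55 and -1.20 (limma adjusted p = 6.45e-04, 6.76e-04 and 0.00145); Cdh5 is also an endothelial marker. Over all 3 lists, 25 of 41 tested genes were called, 13 higher and 12 lower, against the 34.2% of all genes tested. The 41 include genes that passed the filter through WT samples alone, such as Serpine2 and Tspan5. They also include cell type markers such as Dcn, Fcer2a, Vcam1 and Cdh5, so the share is no test of the lists.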

How the data were processed

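RNA from sorted FDCs was amplified with SMART-Seq v4 and made into Nextera XT libraries, per the labels' protocols. The authors deposited 1 table of TMM-scaled signal per gene and sample. The submitters' processing notes name bcl2fastq 2.20.0.422 and the mm10 build; aligner, counting program, annotation and strand handling are not given in the sources used here. Every value was a whole multiple (within 0.02) of 1 step per sample, and dividing by the step gave whole reads in 100% of values. Amplified reads are not independent molecules, so a floor of 3 reads covers counting error only.

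Groups and replicate numbers came from the sample titles. Ngfr KO was compared with WT by limma 3.58.1 (R 4.3.3; lmFit, eBayes with trend, no covariates) on log2(value + 1), for genes reaching 1 in no fewer than 3 samples, with Benjamini-Hochberg adjustment over all genes tested and a threshold of 0.05. The pseudocount of 1 understates changes of low genes. edgeR 4.0.16 (quasi-likelihood, filterByExpr, TMM) and DESeq2 1.42.0 were run on the recovered reads as alternatives. The scripts were tested on simulated data. Coordinates and merged exon lengths came from GENCODE M21 (GRCm38), which matched all 56 members by identifier; promoter windows came from RefSeq.

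Named are Ngfr, every member past the filter or called by edgeR, the other members reaching 0.5 in any sample, and, per pathway list and direction, the 3 called genes with the largest change. One gene that this rule names is not reported here. Members, lists and rules were chosen with earlier results of these data known. Alternatives were pseudocounts of 0.1 and 5, no filter, a filter at a value of 10, quantile and median ratio scaling, robust eBayes without trend, thinned reads, edgeR, DESeq2, the replicate number as a block, and leaving out each sample.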

Additional observations from a re-analysis of the deposited data

Results flagged for a closer look

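In 42 results the 4 WT samples were checked for 1 sample far from the others by Dixon's criterion at the 95% level; chance gives about 1 in 20, or 2.10, and 4 were found. Mmp3 was at 0.866 in WT replicate 4 against at most 0.0412 in the others (gap 0.952 of the range). Mmp8 was at 1.82 in the same sample against at most 0.124 (gap 0.934). Adamts4 was at 1.73 in WT replicate 3 against at most 0.743 (gap 0.839). Mmp12 was at 0.156 in WT replicate 1, where the other WT samples had 0.118 to 0.122, a small difference in reads (40 against 28 to 32) with a gap of 0.907.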

How the results depend on the processing

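The 11 called members became 7 without the filter (5 higher, 2 lower) and 3 with a value of at least 10 required, where 4 members were tested; the 25 called pathway genes became 11 of 13 tested under that stricter filter. Leaving out 1 sample at a time gave 8 to 12 members, 18 to 23 pathway genes and, by edgeR, 3 to 10 members. The other alternatives kept each of these counts within 1.5 times. Over the named members, 376 alternatives gave 7 changes of sign, all in members that were not called: Mmp14 with quantile normalization (-0.031) and Mmp8 under the replicate block (1.46), and, with 1 sample left out, Mmp12 without Ngfr KO replicate 1 (-0.87; range -0.87 to 3.34), Mmp15 without Ngfr KO replicate 1 (0.24), Ngfr KO replicate 2 (0.11) or WT replicate 4 (0.0078; range -1.24 to 0.24) and Mmp8 without WT replicate 4 (1.33; range -2.99 to 1.33). A call was lost in 18 and gained in 10 of the 376. The cause of these shifts was not tested, apart from the smaller number of genes or samples. Same-numbered samples had correlations of deviations of -0.06 to 0.30, so the numbers were not taken as pairs; with the replicate block over 6 samples, limma called 13 members (7 higher, 6 lower) and 21 pathway genes, and edgeR 10 members. The block gave calls for Mmp9 (0.67, adjusted p = 0.0195) and Adamts9 (-0.72, adjusted p = 0.0281) by limma and Adamts4 (-1.39, adjusted p = 0.0451) by edgeR.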
